A study of Mus musculus with 360 samples.

Results

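Interferon response and antigen presentation genes were measured in 5 tissues of female mice exposed to one of 2 dichlorobenzene isomers. Members were taken by a rule on gene symbols that uses no measured value. The rule itself was chosen with earlier results of these data known, and it leaves out H2-Aa. Members bear symbols of the H2, Ifi, Ifn, Irf, Gbp, Oas, Isg, Stat, Mx and Irgm families, or are Usp18 or Rsad2. The rule also names Tap1, Tap2, B2m and Ddx58, which are not analysed here. This gave 39 probes of 36 symbols, out of 3154 probes and 2756 symbols on the panel. Of the 39 probes, 36 passed the filter on low counts in at least 1 tissue and 33 in all 5. Those that passed it in none were Ifnb1, H2-T3 and 1 of 2 probes of H2-T23. The mice were B6D2F1/Crl (BDF-1), a cross of C57BL/6 and DBA/2, 9 weeks old, and tissues were taken on study day 5. One series was given 1,2-dichlorobenzene (1,2-DCB) at 1, 10, 30, 100 or 250 ppm and the other 1,4-dichlorobenzene (1,4-DCB) at 1, 10, 50, 150 or 400 ppm. Each series had 0 ppm controls of its own. Heart, kidney, left liver lobe, lung and both ovaries were assayed with TempO-Seq on the Mouse S1500+ v1.2 panel. TempO-Seq counts pairs of oligonucleotides ligated on a target RNA. After libraries labelled as not used were left out, exposed groups held 2 to 7 animals, with 1 library per animal and tissue. The 1,2-DCB controls numbered 9 in liver, 5 in kidney and 10 in each other tissue, and the 1,4-DCB controls 7, 6 and 10.

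Interferons are cytokines released on infection or tissue damage. They bind receptors such as IFNAR and IFNGR, and kinases of the JAK family then phosphorylate STAT proteins. STAT proteins enter the nucleus with IRF factors and switch on interferon-stimulated genes through short DNA elements, the interferon-stimulated response element (ISRE) and the gamma-activated sequence (GAS). The products include antiviral effectors, guanylate-binding proteins, immunity-related GTPases and the class I major histocompatibility molecules that present peptides to T cells. Healthy tissues carry a low level of this activity without infection.

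The 326 libraries held medians of 12268000 counts in heart, 12489000 in kidney, 19435000 in liver, 20075000 in lung and 5926900 in ovary. Member probes took medians of 0.149%, 0.311%, 0.472%, 0.588% and 0.756% of those counts. Markers of each labelled tissue were highest in that tissue. Levels are given as CPM, counts scaled to one common library size, each animal for groups of up to 5 and the range and median for larger groups. Probes differ in efficiency, so levels are compared between animals and never between genes. A change was called at an adjusted p under 0.05 in the edgeR quasi-likelihood test with Benjamini-Hochberg adjustment over all probes. Changes are on the log2 scale, exposed over control, with the standard error after the ± sign, and contrasts of one compound share its controls. Dbp, a clock output gene whose RNA rises and falls over the day, moved beside these results. In liver its medians at 10, 30 and 250 ppm 1,2-DCB were 299, 268 and 59.9 CPM and its range at 100 ppm 42.1 to 208 CPM, against a median of 25.98 CPM at 0 ppm. In heart its medians from 10 to 250 ppm were 285, 255, 246 and 254 CPM, against 56.1 CPM. At 400 ppm 1,4-DCB they were 89.2 CPM in liver and 191 CPM in heart, against 21.9 and 54.9 CPM at 0 ppm. Control animal 4 of the 1,2-DCB series stood apart, with the highest level of its control group for 19 of 35 members in liver, 20 of 36 in lung, 20 of 34 in heart and 10 of 35 in ovary. Its summed neutrophil markers were 1362 CPM in ovary, against 6.92 to 31.4 CPM in the other controls. In whole tissue, fewer cells of a type and less RNA per cell cannot be told apart.

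At 10 ppm 1,2-DCB and above the called changes of this gene group were almost all downward, and liver held the most calls. In liver, 11, 18 and 12 of 35 members were lower at 10, 30 and 100 ppm, or 31.4%, 51.4% and 34.3%, and 0 were higher. Among all probes tested, 2.69%, 5.57% and 6.73% were lower and 2.65%, 6.11% and 12% higher. At 250 ppm 15 members (42.9%) were lower and 2 (5.71%) higher in liver, against 24.6% lower and 25.1% higher among all probes. The members' median log2 change in liver was −0.48, −0.60, −0.50 and −0.42 from 10 to 250 ppm, while that of all probes lay between −0.04 and −0.01. Of the 35 members, 33, 32, 35 and 29 had a log2 change below 0. The count at 10 ppm in liver was 2, 5 and 7 without exposed animal 201, 202 or 204 and 7 without control animal 4. Without control animal 4 it was 17, 12 and 15 (3 of them higher) at 30, 100 and 250 ppm. With the left-out libraries included, 11 members were called in liver at 250 ppm, against 17.

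In lung, 4, 12, 11 and 16 of 36 members were lower at 10, 30, 100 and 250 ppm 1,2-DCB, against 0.943%, 2.29%, 2.79% and 15% of all probes. There 1, 1, 0 and 0 members were higher, against 0.943%, 2.29%, 3.74% and 17.6%. In heart, 3, 7, 5 and 10 of 34 were lower, against 0.611%, 1.51%, 0.448% and 4.81%, and 0, 0, 0 and 2 were higher, against 0.367%, 0.53%, 0.285% and 4.07%. Kidney had 2, 1, 0 and 7 of 34 members lower and 0 higher, against 0.183%, 0.33%, 0.0366% and 4.95% lower. In ovary 6 of 35 members (17.1%) were lower at 250 ppm, against 7.7%. At 1 ppm 0 members were called in any tissue by edgeR, where 0% of all probes was called, and DESeq2 called 1 member, in lung. At that concentration 0, 10, 11, 3 and 1 members had an unadjusted p under 0.05 in liver, kidney, lung, heart and ovary. The members lay upward there in lung, with 8 of 36 log2 changes below 0 and a median of 0.22, and in kidney, with 12 of 34 below 0 and a median of 0.11. Ovary had 0 calls at 10, 30 and 100 ppm, against 0.0737%, 0% and 0.0737% of all probes, with 1, 1 and 0 calls by DESeq2. At an unadjusted p under 0.05 it had 8, 11 and 3 of 35 members, against 368, 531 and 406 of 2713 probes. Its members had 30, 31 and 16 log2 changes below 0, with medians of −0.34, −0.28 and 0.03. Kidney had 0 calls at 100 ppm, with 0 by DESeq2. There 1 of 34 members had an unadjusted p under 0.05, against 94 of 2729 probes.

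These counts moved with single libraries. Without control animal 4 the lower members numbered 4, 10, 7 and 15 in lung and 1, 3, 2 and 9 in heart from 10 to 250 ppm, and 1 in ovary at 250 ppm. Also without it, 1 member was higher in lung at 10, 30 and 250 ppm and 2 in heart at 250 ppm. In lung, all calls at 10 ppm fell to 1 without exposed animal 201 and 3 without 202, and at 100 ppm to 6 or 7 without exposed animal 402, 404 or 405. At 1 ppm 2, 4 and 5 members were called in lung without exposed animal 102, 103 or 105, and of these 2, 4 and 4 were higher. In heart the count at 10 ppm was 0 without exposed animal 202 and 1 without 201, 205 or control animal 9. It was 2 or 3 at 30 ppm without 305 or 301, and 2 or 3 at 100 ppm without any exposed animal or without control animal 3 or 9. In kidney the 2 calls at 10 ppm were lost whichever of 7 of the 9 animals was left out, and that at 30 ppm without exposed animal 305. In ovary 3 were called at 250 ppm without exposed animal 501, 506R, 507 or 508 or without control animal 1 or 5. With the Dbp level as a covariate, calls at the 4 lower concentrations numbered 16 in liver, 14 in lung, 2 in heart and 1 in kidney, against 41, 29, 15 and 3 without it. At 250 ppm they numbered 7 in heart, 2 in kidney and 1 in ovary, against 12, 7 and 6. The Dbp level and the exposure cannot be told apart where both moved.

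**Figure D1:**
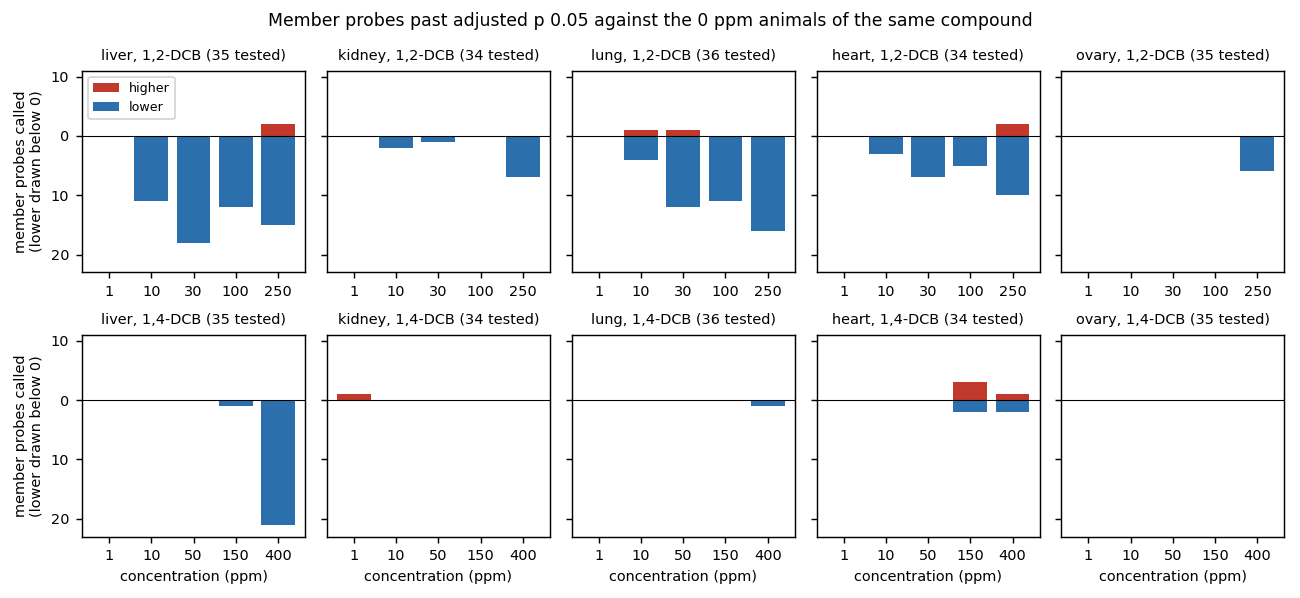
Number of member probes called higher (red, above 0) or lower (blue, below 0) than the 0 ppm controls, by concentration in ppm, for 5 tissues and both isomers; each bar is a count of probes at an adjusted p under 0.05. Lower calls reach 18 in liver at 30 ppm 1,2-DCB, 16 in lung and 10 in heart at 250 ppm, and 21 in liver at 400 ppm 1,4-DCB.

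**Figure D2:**
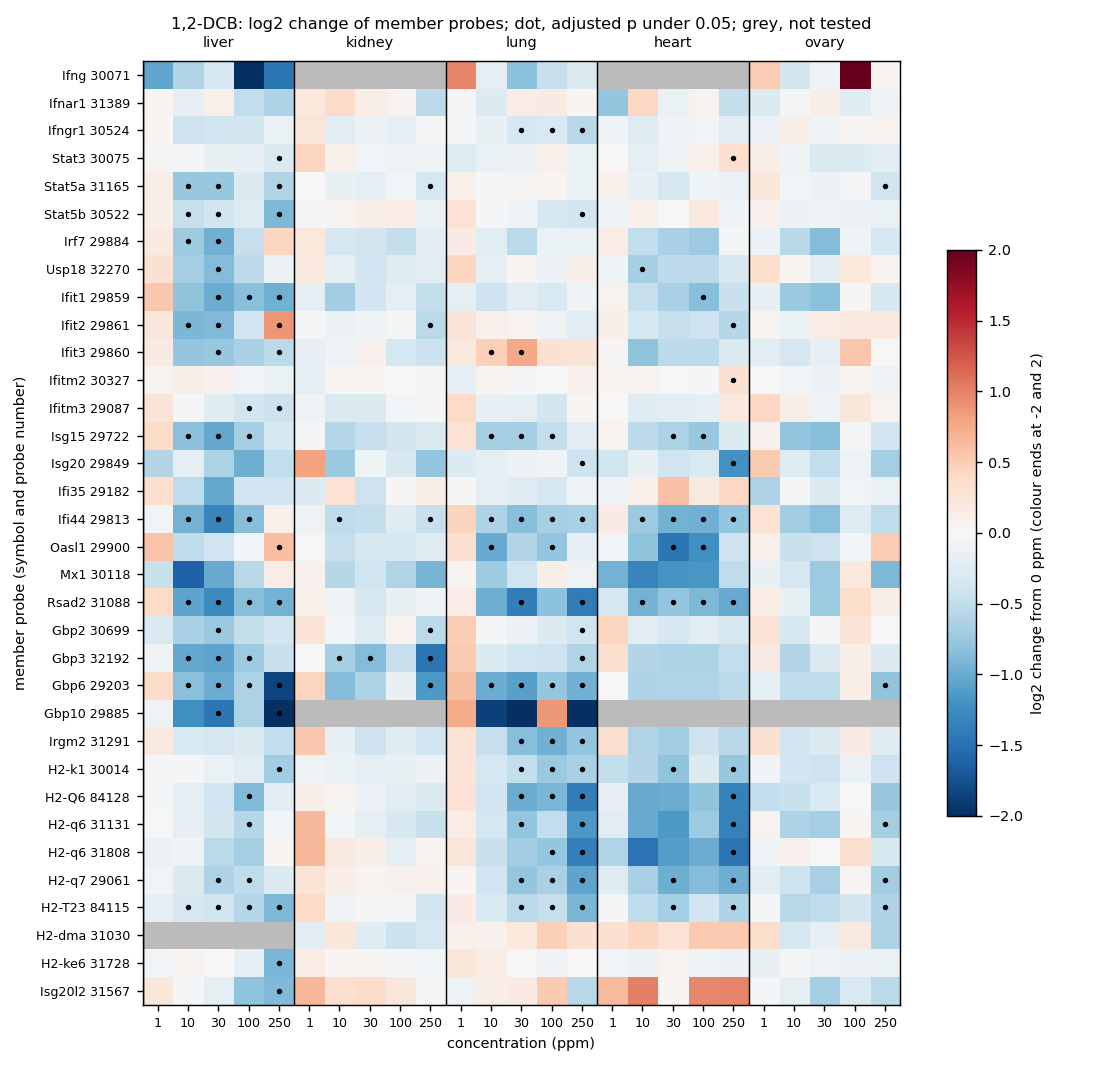
Log2 change from 0 ppm of 34 of the 36 tested member probes (rows, by role) at 5 concentrations of 1,2-DCB in ppm in each tissue (columns); blue is lower and red higher, colour ends at −2 and 2, dots mark an adjusted p under 0.05 and grey cells were not tested. Most rows lie below 0 from 10 ppm on in liver, kidney, lung and heart, and in ovary at 10, 30 and 250 ppm. Ifit2 and Oasl1 in liver at 250 ppm and Ifit3 in lung at 10 and 30 ppm are red with a dot.

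Promoter windows are shown for 8 members picked by hand. Each gene was lower in at least 1 tissue, and they belong to the family that the ISRE is known to serve. Other members meet this too, so the share of the 8 with a core does not stand for the set. The windows are the 140 bases before the RefSeq start of each gene, build GRCm38.p6, 5′ to 3′ on the strand of the gene. Capitals mark matches to GAAANNGAAA, the ISRE core, on either strand, and overlapping matches are joined. Isg15 lies at chr4:156200819-156200958 on the reverse strand, Ifit1 at chr19:34640749-34640888 on the forward strand and Rsad2 at chr12:26456453-26456592 on the reverse strand. Gbp2 lies at chr3:142620523-142620662 on the forward strand, Irgm2 at chr11:58214837-58214976 on the forward strand and H2-T23 at chr17:36032702-36032841 on the reverse strand. The windows of Ifi44 and H2-K1 are chr3:151749911-151750050 on the reverse strand and chr17:34000348-34000487 on the reverse strand.
Isg15: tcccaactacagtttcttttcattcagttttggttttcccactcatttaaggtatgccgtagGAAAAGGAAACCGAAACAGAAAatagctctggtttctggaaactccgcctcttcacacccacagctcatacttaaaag
Ifit1: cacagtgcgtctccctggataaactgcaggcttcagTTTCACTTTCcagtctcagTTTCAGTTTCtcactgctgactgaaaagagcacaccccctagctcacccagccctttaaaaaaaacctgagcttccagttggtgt
Rsad2: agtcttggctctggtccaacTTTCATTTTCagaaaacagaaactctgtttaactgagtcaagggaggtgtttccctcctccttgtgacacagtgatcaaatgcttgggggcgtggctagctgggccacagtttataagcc
Gbp2: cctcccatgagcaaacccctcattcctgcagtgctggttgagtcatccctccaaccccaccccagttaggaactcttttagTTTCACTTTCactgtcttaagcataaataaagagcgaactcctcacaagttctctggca
Irgm2: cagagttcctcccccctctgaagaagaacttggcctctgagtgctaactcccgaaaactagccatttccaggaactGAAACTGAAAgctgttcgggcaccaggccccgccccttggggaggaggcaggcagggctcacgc
H2-T23: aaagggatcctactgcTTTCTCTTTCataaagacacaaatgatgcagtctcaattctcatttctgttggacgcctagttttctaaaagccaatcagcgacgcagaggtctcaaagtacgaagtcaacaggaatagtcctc
Ifi44: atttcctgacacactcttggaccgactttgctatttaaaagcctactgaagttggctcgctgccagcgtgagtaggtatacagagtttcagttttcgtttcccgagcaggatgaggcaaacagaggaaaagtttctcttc
H2-K1: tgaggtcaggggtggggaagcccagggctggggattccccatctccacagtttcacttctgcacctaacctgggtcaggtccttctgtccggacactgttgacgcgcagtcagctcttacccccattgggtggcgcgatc

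Isg15 held 3 overlapping cores and Ifit1 held 2. Rsad2, Gbp2, Irgm2 and H2-T23 held 1 each, and the windows of Ifi44 and H2-K1 held 0. Only exact matches were counted, so a 0 is no evidence that a related element with other letters is absent. Searched over the RefSeq promoter window from 250 bases before to 50 after the start, the ISRE core was present in 10 of 30 member genes that had a window (33.3%) and in 3.99% of 27025 genes. The 10 genes were Gbp2, Gbp3, H2-T23, Ifit1, Ifit3, Ifitm2, Ifitm3, Irgm2, Isg15 and Rsad2. The GAS motif, TTCNNNGAA on either strand, was present in 7 of the 30 (23.3%) and in 9.55% of all genes. Those 7 were Ifi35, Ifit2, Ifitm3, Ifnar1, Ifng, Irgm2 and Isg20. A match describes letters in a window and is no evidence of binding.

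Few calls fell on interferons and their receptors. Interferon beta (Ifnb1) had counts in only 7 of 326 libraries. Interferon gamma (Ifng), the product of T and NK cells that drives class I and GTPase genes, stood near the detection limit. Ifng had 0 to 0.868 CPM (median 0.375) in lungs at 250 ppm 1,2-DCB, against 0.0554 to 1.48 CPM (median 0.402) in controls. It was not called (log2 change −0.29 ± 0.67, adjusted p = 0.777), so a difference was not detectable at this depth. Ifnar1, a chain of the type I interferon receptor, was called in 0 of the 50 comparisons of an exposed group with its controls. Ifngr1, the ligand-binding chain of the interferon gamma receptor, was lower in lung at 30, 100 and 250 ppm 1,2-DCB.

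In lung, Ifngr1 stood at 106.3, 108.6, 113.4, 117.7 and 124.1 CPM at 30 ppm and 110.5, 112.9, 113.2, 115.1 and 134.7 CPM at 100 ppm. At 250 ppm it was 90.3 to 107.5 CPM (median 98.9), against 122.1 to 170.4 CPM (median 147.2) in controls. All 6 lungs at 250 ppm lay below every control (log2 change −0.56 ± 0.07, adjusted p = 2.77e-10), whereas at 30 and 100 ppm the highest exposed lung reached into the control range. In liver Ifngr1 was lower at 400 ppm 1,4-DCB only, with 8.17, 9.04, 9.04, 9.72 and 10.9 CPM, against 10.6 to 14.9 CPM (median 14.02) in controls (log2 change −0.51 ± 0.16, adjusted p = 0.0117). Beside the lung values, endothelial markers were lower at 250 ppm for 3 of 3 probes tested, none with a median of 0. Their summed level was 832 to 1255 CPM, against 971 to 1546 CPM in controls, and their part in the result was not tested.

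Among the signalling members, Stat5a, Stat5b, Irf7 and Usp18 were lower in liver, and Stat3 was higher in heart. Of the 6 probes of this role, 3, 5, 1 and 4 were lower in liver at 10, 30, 100 and 250 ppm 1,2-DCB and 5 at 400 ppm 1,4-DCB, with 0 higher. IRF7 amplifies type I interferon, and USP18 removes ISG15 and damps the receptor. STAT5A and STAT5B, in contrast, mainly relay growth hormone and other cytokines in liver.

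Stat5a in liver was 24.9, 25.7, 31.1 and 32.4 CPM at 10 ppm 1,2-DCB and 25.03, 25.8, 26.6, 28.98 and 35.9 CPM at 30 ppm, against 36.3 to 61.4 CPM (median 48.5) in controls. No exposed liver reached the control range at 10 ppm (log2 change −0.75 ± 0.16, adjusted p = 0.00135) or at 30 ppm (log2 change −0.76 ± 0.14, adjusted p = 0.000179). Stat5b was 15.8 to 16.9 CPM (median 16.2) at 250 ppm, against 26.8 to 38.1 CPM (median 30.1) in controls. The Stat5b groups did not overlap either (log2 change −0.90 ± 0.12, adjusted p = 1.70e-09).

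Irf7 in liver was 15.998, 16.5, 18.05, 19.9 and 22.9 CPM at 30 ppm, against 21.3 to 73.7 CPM (median 32.3) in controls. The highest exposed liver reached just above the lowest control (log2 change −0.97 ± 0.21, adjusted p = 0.000969). Usp18 was 15.2, 27.02, 28.1, 30.7 and 30.8 CPM at 30 ppm, against 33.9 to 69.2 CPM (median 45.3) in controls. All 5 livers lay below the control range of Usp18 (log2 change −0.87 ± 0.20, adjusted p = 0.00202), and neither gene was called in liver at 250 ppm. In heart Stat3, which relays interleukin-6, was 34.1 to 43.8 CPM (median 38.2) at 250 ppm, against 23.9 to 34.8 CPM (median 30.8) in controls. It was higher there (log2 change 0.34 ± 0.09, adjusted p = 0.013), with an overlap of the ranges, and lower in liver at the same concentration (log2 change −0.30 ± 0.12, adjusted p = 0.0325).

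The 12 antiviral effectors held the only upward calls in liver and lung. In liver 4, 6, 5 and 4 were lower at 10, 30, 100 and 250 ppm 1,2-DCB, with median log2 changes of −0.79, −0.93, −0.60 and −0.35, and 2 were higher at 250 ppm. In heart 2, 4, 5 and 4 were lower, and 1 was higher at 250 ppm. In lung 3 were lower at each of these concentrations and 1 higher at 10 and 30 ppm. Ifi44, an interferon-induced protein, was lower in 17 of its 50 comparisons with controls, more than any other member. Under 1,2-DCB it was called in liver at 10, 30 and 100 ppm, in kidney at 10 and 250 ppm, and in lung and heart at 10, 30, 100 and 250 ppm.

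Ifi44 in liver was 14.3, 16.9, 21.8 and 25.4 CPM at 10 ppm, 11.5, 13.4, 15.5, 16.3 and 18.3 CPM at 30 ppm and 13.6, 16.2, 19.3, 26.3 and 28.8 CPM at 100 ppm, against 22.01 to 60.8 CPM (median 37.3) in controls. At 30 ppm all 5 livers lay below the control range (log2 change −1.32 ± 0.21, adjusted p = 1.12e-05). At 250 ppm the level overlapped with the controls, at 30.96 to 49.9 CPM (median 40.2) (log2 change 0.11 ± 0.19, adjusted p = 0.671). The course in liver was thus lowest at the middle concentrations. In lung Ifi44 was 37.7, 38.6, 39.2, 39.5 and 41.3 CPM at 30 ppm and 38.7 to 50.9 CPM (median 45.97) at 250 ppm, against 54.6 to 91.4 CPM (median 69.7) in controls. Both exposed lung groups lay below every control lung, at 30 ppm (log2 change −0.85 ± 0.15, adjusted p = 9.76e-05) and at 250 ppm (log2 change −0.64 ± 0.14, adjusted p = 0.000285).

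In heart Ifi44 was 11.7, 13.04, 13.5, 17.8 and 19.8 CPM at 100 ppm and 13.9 to 23.2 CPM (median 16.5) at 250 ppm, against 20.3 to 51.1 CPM (median 26.2) in controls. At 100 ppm the heart groups did not overlap (log2 change −0.97 ± 0.19, adjusted p = 0.00221), and at 250 ppm they did (log2 change −0.78 ± 0.17, adjusted p = 0.000912). Kidney levels of Ifi44 were 116.4, 123.04, 130.5 and 133.9 CPM at 10 ppm and 94.96 to 154.5 CPM (median 133.6) at 250 ppm, against 166, 173, 177, 186 and 198 CPM in controls. Every kidney of both groups lay below the control range, at 10 ppm (log2 change −0.52 ± 0.12, adjusted p = 0.0277) and at 250 ppm (log2 change −0.46 ± 0.11, adjusted p = 0.00263). With the Dbp level as a covariate the Ifi44 calls at 250 ppm were lost in lung (adjusted p = 0.0698) and heart (adjusted p = 0.073). At 30 ppm the call was kept in liver (log2 change −1.11, adjusted p = 0.00155) and lost in lung (adjusted p = 0.182).

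**Figure D3:**
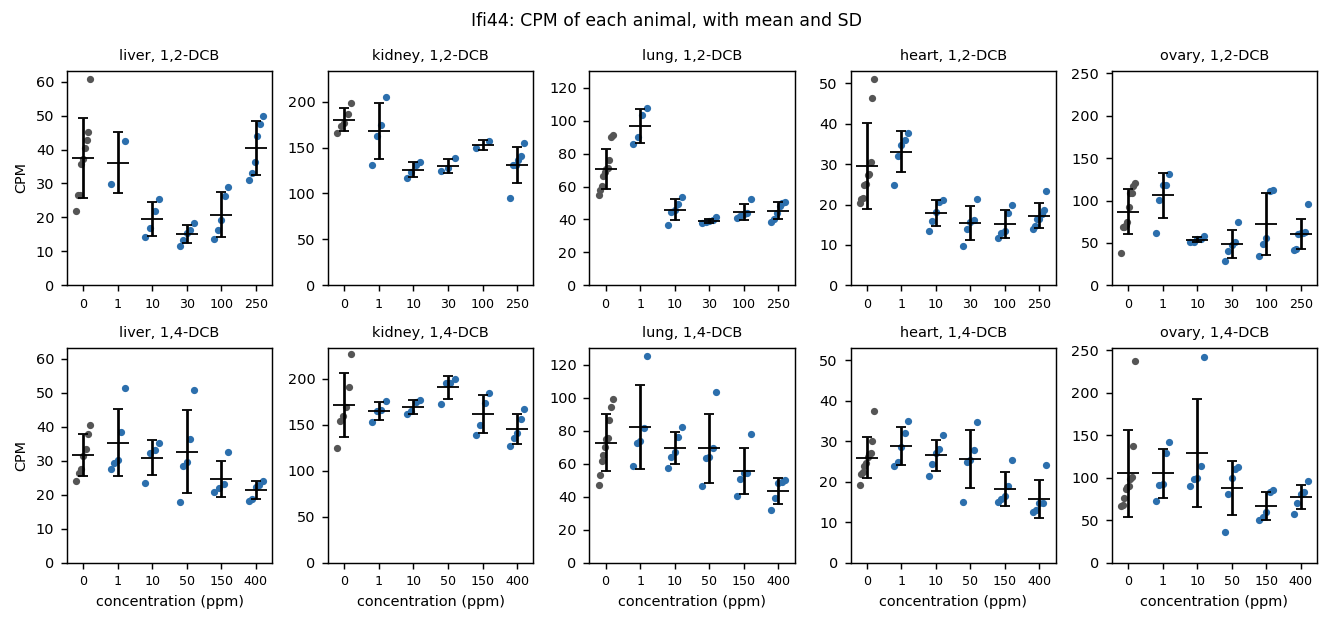
Ifi44 in CPM (vertical axis) in every used animal by concentration in ppm, in 5 tissues (columns) and for both isomers (rows); grey points are 0 ppm controls, blue points exposed animals, bars the mean and SD. Livers dip from 10 to 100 ppm 1,2-DCB and overlap with the controls at 250 ppm, while lungs and hearts stay low from 10 ppm on.

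Isg15 is a ubiquitin-like protein whose promoter above carries 3 overlapping ISRE cores. In liver it was 75.1, 91.5, 98.4 and 99.9 CPM at 10 ppm and 67, 77.8, 79.6, 85.4 and 88.5 CPM at 30 ppm, against 119.7 to 203 CPM (median 154.5) in controls. The groups did not overlap at 10 ppm (log2 change −0.83 ± 0.21, adjusted p = 0.0129) or at 30 ppm (log2 change −1.03 ± 0.20, adjusted p = 0.000199), and with the Dbp covariate the change at 30 ppm was −0.51 (adjusted p = 0.0715). In lung at 10 ppm Isg15 was 64.5, 80.7, 80.9, 87.6 and 92.7 CPM, against 104.8 to 185 CPM (median 115.7) in controls, and all 5 lungs lay below the controls (log2 change −0.66 ± 0.14, adjusted p = 0.00365). In heart at 100 ppm it was 27.2, 29.4, 30.3, 33.9 and 36.6 CPM, against 34.4 to 85.96 CPM (median 45.9) in controls, with overlap (log2 change −0.75 ± 0.15, adjusted p = 0.00303). At 250 ppm 1,2-DCB Isg15 was called in 0 tissues.

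Rsad2 (viperin), which makes a chain-terminating nucleotide, was lower in liver and heart at 10, 30, 100 and 250 ppm and in lung at 30 and 250 ppm. In lung it was 4.20, 4.39, 5.52, 6.05 and 6.31 CPM at 30 ppm and 2.46 to 8.34 CPM (median 5.20) at 250 ppm, against 6.65 to 22.96 CPM (median 13.9) in controls. The lungs at 30 ppm all lay below the controls (log2 change −1.38 ± 0.32, adjusted p = 0.00249) and those at 250 ppm overlapped with them (log2 change −1.39 ± 0.29, adjusted p = 0.00013). In heart at 250 ppm Rsad2 was 3.80 to 9.58 CPM (median 5.88), against 8.02 to 18.7 CPM (median 11.5) in controls. The highest exposed heart stood above the lowest control (log2 change −1.01 ± 0.19, adjusted p = 0.000167). Oasl1, a protein like the oligoadenylate synthetases, was 0.662, 0.801, 1.35, 1.59 and 1.78 CPM in heart at 30 ppm, against 2.39 to 4.82 CPM (median 3.13) in controls. These groups did not overlap (log2 change −1.44 ± 0.32, adjusted p = 0.00587).

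The IFIT genes, which encode RNA-binding antiviral proteins and are neighbours in the genome, did not move as one. In liver at 250 ppm Ifit1 was 10.1 to 15.2 CPM (median 12.6), against 13.4 to 35.5 CPM (median 30.1) in controls (log2 change −0.97 ± 0.23, adjusted p = 0.000332). Ifit3 was 2.83 to 12.8 CPM (median 7.71), against 7.40 to 17.6 CPM (median 10.3) in controls (log2 change −0.54 ± 0.22, adjusted p = 0.0396), with an adjusted p of 0.0893 without control animal 4. Ifit2 in the same livers was higher, at 5.92 to 17.9 CPM (median 13.5), against 3.39 to 10.9 CPM (median 6.81) in controls (log2 change 0.88 ± 0.21, adjusted p = 0.000448). The exposed and control ranges of all of these genes overlapped. At 10 and 30 ppm Ifit2 was lower in liver, with log2 changes of −0.91 (adjusted p = 0.0298) and −0.88 (adjusted p = 0.01). Its direction thus turned between 30 and 250 ppm. Oasl1 was the other member higher in liver at 250 ppm, at 21.6 to 42.5 CPM (median 26.6), against 9.81 to 28.5 CPM (median 17.4) in controls (log2 change 0.61 ± 0.22, adjusted p = 0.0158). With the left-out libraries included its adjusted p was 0.0893.

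In lung Ifit3 was higher at low concentrations. It was 43.1, 43.1, 44.1, 54.2 and 60.7 CPM at 10 ppm (log2 change 0.47 ± 0.12, adjusted p = 0.0277) and 49.3, 52.6, 54.5, 69.999 and 74.5 CPM at 30 ppm, against 28.4 to 46.7 CPM (median 35.7) in controls. At 30 ppm all 5 lungs lay above every control (log2 change 0.76 ± 0.12, adjusted p = 8.53e-06), while Ifi44 and Isg15 in the same lungs lay below every control. At 100 ppm Ifit3 was 36.9, 40.01, 41.97, 42.9 and 57.9 CPM and not called. With the Dbp covariate its changes at 10 and 30 ppm were 0.09 (adjusted p = 0.959) and 0.39 (adjusted p = 0.153). In heart Ifitm2, a membrane protein that blocks virus entry, was 416 to 655 CPM (median 467) at 250 ppm, against 315 to 505 CPM (median 396) in controls, with overlap (log2 change 0.31 ± 0.10, adjusted p = 0.0394). This call was lost in 8 of 17 refits that left out 1 animal. Ifitm3 in liver was 947 to 1846 CPM (median 1372), against 1497 to 2711 CPM (median 1833) in controls, with overlap (log2 change −0.42 ± 0.12, adjusted p = 0.00196). Isg20, an exonuclease that degrades RNA, was lower at 250 ppm in heart (log2 change −1.22 ± 0.33, adjusted p = 0.00932) and lung (log2 change −0.41 ± 0.16, adjusted p = 0.0469). Ifi35 was called in 0 comparisons with controls, and Mx1 under 1,4-DCB only.

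The guanylate-binding proteins (Gbp2, Gbp3, Gbp6, Gbp10) and Irgm2 are GTPases that attack the vacuoles of intracellular microbes. They were lower in liver, kidney, lung and ovary and called in 0 comparisons with controls in heart. Of 5 probes in liver 2, 4, 2 and 2 were lower from 10 to 250 ppm 1,2-DCB, and of 5 in lung 1, 2, 2 and 4. Of 4 in kidney, 3 were lower at 250 ppm, and of 4 in ovary 1. Members of this family are similar in sequence, so reads of one could be split with another.

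Gbp3 in kidney was 137.5, 147.6, 154.5 and 172 CPM at 10 ppm, 123.6, 129.4 and 146.6 CPM at 30 ppm, 155.2 and 195 CPM at 100 ppm and 78.9 to 107.1 CPM (median 85.8) at 250 ppm, against 202, 231, 236, 240.4 and 302 CPM in controls. All 6 kidneys at 250 ppm lay below the 5 controls (log2 change −1.45 ± 0.14, adjusted p = 2.47e-10). The call was kept with the Dbp covariate (log2 change −1.51, adjusted p = 6.72e-08). Gbp3 was also lower at 10 ppm (log2 change −0.67 ± 0.16, adjusted p = 0.0303) and 30 ppm (log2 change −0.86 ± 0.18, adjusted p = 0.00551), and not called at 100 ppm, with 2 kidneys (log2 change −0.47 ± 0.20, adjusted p = 1). The 1,2-DCB control kidneys were themselves high in Gbp3, exceeding those of the 1,4-DCB series, which had a median of 143.8 CPM. The log2 difference between the control groups was 0.64 ± 0.14 (adjusted p = 0.0203). Gbp6 in kidney was 1.88 to 6.11 CPM (median 4.22) at 250 ppm, against 5.60, 6.04, 8.29, 10.5 and 14.7 CPM in controls, with overlap (log2 change −1.16 ± 0.28, adjusted p = 0.00379). With the Dbp covariate its change was −0.46 (adjusted p = 0.451).

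In liver Gbp6 was 4.68 to 8.96 CPM (median 8.10) at 250 ppm, against 15.9 to 34.97 CPM (median 27.4) in controls. No exposed liver reached the control range of Gbp6 (log2 change −1.83 ± 0.21, adjusted p = 1.34e-10). Gbp10, read at low counts, was 0 to 0.796 CPM (median 0.0472) in the same livers, against 0.847 to 2.76 CPM (median 1.37) in controls, likewise without overlap (log2 change −3.14 ± 0.49, adjusted p = 2.20e-07). Gbp3 in liver was 10.4, 13.1, 14.4 and 16.1 CPM at 10 ppm and 10.8, 11.8, 12.2, 15.3 and 15.5 CPM at 30 ppm, against 17.9 to 52.999 CPM (median 25.6) in controls. It lay below every control at 10 ppm (log2 change −1.02 ± 0.25, adjusted p = 0.00819) and 30 ppm (log2 change −1.06 ± 0.23, adjusted p = 0.000982), and was not called at 250 ppm (log2 change −0.45 ± 0.21, adjusted p = 0.069). Irgm2 in lung was 50.03, 58.2, 66.8, 67.5 and 71.9 CPM at 100 ppm and 55.5 to 85.9 CPM (median 71.2) at 250 ppm, against 91.6 to 236 CPM (median 105) in controls. No exposed lung stood in the control range of Irgm2 at 100 ppm (log2 change −0.96 ± 0.20, adjusted p = 0.00087) or 250 ppm (log2 change −0.78 ± 0.18, adjusted p = 0.00054). Gbp2 in kidney was 53.5 to 69.9 CPM (median 62.6) at 250 ppm, against 72.8, 88.7, 90.2, 94.997 and 104.1 CPM in controls, without overlap (log2 change −0.54 ± 0.18, adjusted p = 0.0485). In ovary Gbp6 was 7.34 to 15.7 CPM (median 10.5) at 250 ppm, against 11.8 to 33.3 CPM (median 15.7) in controls, with overlap (log2 change −0.81 ± 0.29, adjusted p = 0.0432). Without control animal 4 its adjusted p was 0.0811.

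The 6 class I probes are for H2-K1, which presents peptides to CD8 T cells, and for the related H2-Q6 (3 probes), H2-Q7 and H2-T23. At 250 ppm 6 of 6 were lower in lung and in heart, 3 of 6 in ovary, 2 of 6 in liver and 0 of 6 in kidney. Their median log2 change was −1.10 in lung, −1.16 in heart, −0.65 in ovary, −0.25 in liver and −0.20 in kidney. In lung 5 of 6 were already lower at 30 and 100 ppm. These genes are related in sequence to differing degrees and the cross combines 2 haplotypes, so assignment of reads to one class I gene is uncertain. The probes are not independent.

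H2-T23, which encodes the nonclassical molecule Qa-1, was lower in 12 of its 50 comparisons with controls. In liver it was 213, 214, 231 and 234 CPM at 10 ppm, 188, 201, 212, 218 and 238 CPM at 30 ppm, 172, 175, 179, 206 and 209 CPM at 100 ppm and 129.9 to 182 CPM (median 147.2) at 250 ppm, against 226 to 382 CPM (median 271) in controls. The median was lower at each higher concentration, and livers at 100 and 250 ppm lay below every control. The log2 changes were −0.32, −0.40, −0.56 and −0.91 (adjusted p = 0.0399, 0.00167, 4.60e-06 and 2.64e-13). In lung H2-T23 was 96.1 to 131.9 CPM (median 114.7) at 250 ppm, against 158.6 to 356 CPM (median 202) in controls, without overlap (log2 change −0.91 ± 0.12, adjusted p = 4.85e-09). In heart it was 16.6 to 27.1 CPM (median 19.4), against 24.03 to 60.7 CPM (median 28.2) in controls (log2 change −0.62 ± 0.15, adjusted p = 0.00456). In ovary it was 82.7 to 116.8 CPM (median 97.7), against 92.9 to 217 CPM (median 149.7) in controls (log2 change −0.62 ± 0.16, adjusted p = 0.00477). The heart and ovary ranges overlapped. The ovary call was kept without control animal 4 (adjusted p = 0.0149) and lost with the Dbp covariate (adjusted p = 0.0943).

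**Figure D4:**
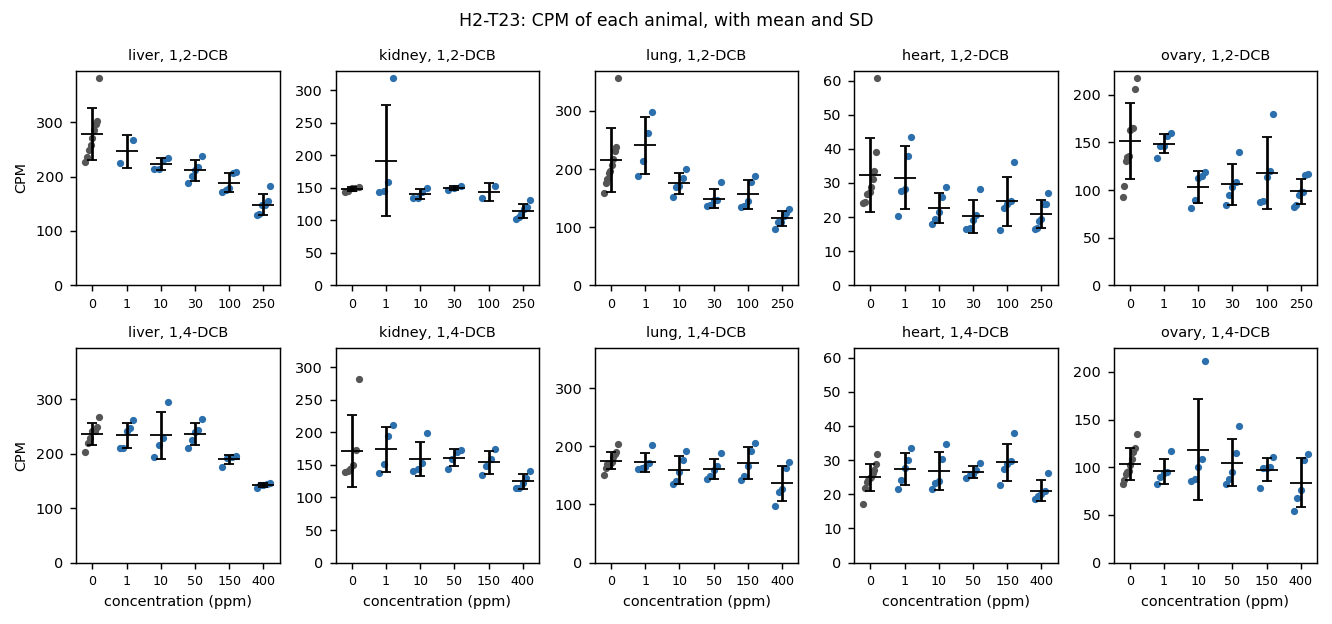
H2-T23 in CPM (vertical axis) in every used animal by concentration in ppm, in 5 tissues (columns) and for both isomers (rows); grey points are 0 ppm controls, blue points exposed animals, bars the mean and SD. Livers step down with 1,2-DCB to a median of 147.2 CPM at 250 ppm, and livers at 400 ppm 1,4-DCB sit between 136.3 and 146.3 CPM, below all controls.

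H2-K1 in liver was 257 to 326 CPM (median 296) at 250 ppm, against 378 to 648 CPM (median 459.7) in controls, without overlap (log2 change −0.70 ± 0.08, adjusted p = 4.02e-11). In lung it was 211 to 256 CPM (median 224), against 212 to 612 CPM (median 357) in controls (log2 change −0.64 ± 0.14, adjusted p = 0.000268), with the lowest control as low as the exposed lungs. H2-Q7 in lung was 200.3 to 266 CPM (median 223), against 308 to 944 CPM (median 430.3) in controls, without overlap (log2 change −1.05 ± 0.16, adjusted p = 4.60e-07). The H2-Q6 probe with the most counts in heart was 1.88 to 7.72 CPM (median 3.55) in exposed hearts, against 3.41 to 33.4 CPM (median 8.15) in controls, with overlap (log2 change −1.35 ± 0.32, adjusted p = 0.00321). In heart control animal 4 was the highest control for these probes. Without it H2-K1 changed by −0.50 on the log2 scale (adjusted p = 0.038), 1 H2-Q6 probe was not called (adjusted p = 0.192), and in ovary H2-Q7 was not called (adjusted p = 0.0896). Leukocyte markers, whose cells carry class I RNA at high level, summed to 244 to 390.0 CPM in lungs at 250 ppm, against 325 to 689.7 CPM in controls (525.6 CPM without control animal 4). In lung 2 of 4 probes tested were lower (Ptprc −0.45 and Coro1a −0.38 on the log2 scale) and 0 of 4 had a median of 0. In heart the same sum was 23.1 to 31.98 CPM, against 19.8 to 78.1 CPM in controls, with 2 of 4 probes at a median of 0, and in liver 18.99 to 53.7 CPM, against 27.3 to 91.5 CPM in controls. The highest controls were again animal 4, and without it the control sums reached 35.5 CPM in heart and 35.1 CPM in liver, so that the highest exposed liver lay above them. The part of these cells in the class I result was not tested.

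Of the class II pathway the rule holds 1 probe, H2-DMa, a chaperone that loads peptides onto class II molecules. It was measured outside liver and called in 0 comparisons with controls by edgeR. In lung H2-DMa was 3.18 to 5.53 CPM (median 3.55) at 250 ppm, against 2.02 to 4.71 CPM (median 2.89) in controls (log2 change 0.30 ± 0.21, adjusted p = 0.286). Cd74, the class II invariant chain and not a member, was lower at 250 ppm in liver (log2 change −2.08 ± 0.24, adjusted p = 7.40e-11) and heart (−2.02 ± 0.26, adjusted p = 3.88e-08). It was lower in kidney (−1.05) and lung (−0.55 on the log2 scale) as well. Summed markers of macrophages, which carry class II, were 278 to 1418 CPM in livers at 250 ppm, against 305 to 1614 CPM in controls, and 0 of 3 had a median of 0. The highest of these controls was animal 4, and the others reached 553 CPM, below the highest exposed liver. The list of dendritic cell markers had 0 probes on the panel. Members that share only their symbol with the family include H2-Ke6 and Isg20l2: H2-KE6 is a steroid and fatty acid enzyme encoded within the MHC, and ISG20L2 a nucleolar nuclease. H2-Ke6 in liver was 20.3 to 34.4 CPM (median 26.1) at 250 ppm, against 45.5 to 57.7 CPM (median 49.4) in controls (log2 change −0.91 ± 0.10, adjusted p = 7.80e-12), without overlap. Isg20l2 was lower there by a log2 change of −0.89 (adjusted p = 0.0361).

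A list of 74 other genes of interferon signalling and antigen processing had 35 probes tested in each of liver, kidney, lung and ovary and 34 in heart. In liver 4, 11 and 8 were lower at 10, 30 and 100 ppm 1,2-DCB, against 2.69%, 5.57% and 6.73% of all probes. At 250 ppm 9 were lower and 2 higher in liver, a share of lower calls near the 24.6% of all probes, and the median log2 change was −0.22. Also at 250 ppm, 9 were lower in lung, against 15%, with 2 higher, 7 lower in heart, against 4.81%, and 4 lower in kidney, against 4.95%. The 3 lower in ovary were near the background of 7.7%. Lower in liver at 250 ppm were the GTPases Tgtp1 (−1.46), Iigp1 (−1.03 ± 0.13, adjusted p = 8.72e-10) and Igtp (−0.79 on the log2 scale). Also lower were the T cell chemokine Cxcl10 (−0.67) and the immunoproteasome subunits Psmb8 (−0.30) and Psmb10 (−0.35), while Bst2 (tetherin) was higher (0.40). In lung Cd86, a costimulatory ligand of antigen-presenting cells, was lower (log2 change −1.17 ± 0.16, adjusted p = 3.45e-08), as was Psmb9 (−0.54). Calr, a chaperone of class I assembly, was higher there (0.41). In heart Tgtp1 changed by −1.45, Iigp1 by −1.21 and Psmb9 by −0.69.

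Under 1,4-DCB liver at the highest concentration, 400 ppm, held more calls than the other groups together. There 21 of 35 members were lower and 0 higher, against 13.6% lower and 18% higher among all probes. The members' median log2 change was −0.53, with 33 of 35 below 0. With the left-out libraries included, 13 were called. The 21 comprised 6 of 12 antiviral effectors, 5 of 6 signalling members, 4 of 5 GTPases, 4 of 6 class I probes, Ifngr1 and H2-Ke6. At 1, 10 and 50 ppm 0 members were called in liver by edgeR or DESeq2 and 0 had an unadjusted p under 0.05, where 0%, 0% and 0.769% of all probes were called. At 150 ppm H2-T23 alone was lower, against 0.884% of all probes, and that call was lost whichever of 9 of the 11 animals was left out.

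Ifit1 in liver was 7.93, 8.83, 9.21, 12.7 and 13.5 CPM at 400 ppm, against 15.8 to 34.03 CPM (median 24.4) in controls (log2 change −1.23 ± 0.26, adjusted p = 0.000106). Ifit3 was 4.004, 5.65, 6.71, 6.90 and 7.80 CPM, against 8.74 to 15.4 CPM (median 11.9) in controls (log2 change −1.01 ± 0.25, adjusted p = 0.00115). Mx1, a dynamin-like antiviral GTPase read at low counts, was 0.307, 0.400, 0.588, 0.593 and 0.796 CPM, against 0.821 to 2.25 CPM (median 1.71) in controls (log2 change −1.58 ± 0.48, adjusted p = 0.00798). None of the exposed livers reached the control range for Ifit1, Ifit3 or Mx1. Irf7 was 10.5, 11.4, 15.1, 15.5 and 16.3 CPM, against 19.5 to 36.03 CPM (median 26.3) in controls (log2 change −0.96 ± 0.21, adjusted p = 0.0003). Gbp6 was 8.88, 9.94, 12.2, 12.7 and 15.9 CPM, against 16.9 to 29.6 CPM (median 25.3) in controls (log2 change −1.06 ± 0.23, adjusted p = 0.000158). These too were separate from the controls in every animal.

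Of class I, H2-T23 was 136.3, 142.4, 142.8, 144.95 and 146.3 CPM in livers at 400 ppm, against 204 to 267 CPM (median 242) in controls (log2 change −0.73 ± 0.10, adjusted p = 1.02e-08). H2-Q7 was 65.5, 68.4, 69.4, 80.8 and 81.3 CPM, against 97.1 to 170.2 CPM (median 122.3) in controls (log2 change −0.78 ± 0.17, adjusted p = 0.0002). H2-K1 was 348, 355, 357, 364 and 367 CPM, against 421 to 502 CPM (median 438) in controls (log2 change −0.33 ± 0.09, adjusted p = 0.00188). No exposed liver reached the control range for these class I probes, and the H2-K1 call was lost with the left-out libraries included (adjusted p = 0.309). Leukocyte markers in these livers summed to 13.95 to 19.3 CPM, against 18.9 to 30.8 CPM in controls, with Ptprc (−0.75) and Coro1a (−0.67 on the log2 scale) lower and 1 of 4 probes at a median of 0. Macrophage markers summed to 193 to 249.5 CPM, against 363 to 478 CPM in controls, with 0 of 3 at a median of 0. Neutrophil markers summed to 206 to 659 CPM, against 4.11 to 36.5 CPM in controls, with 2 of 6 at a median of 0. The part of these cells in the lower levels was not tested. Of the 35 tested pathway genes outside the set, 5 were lower in liver at 400 ppm, a share near the 13.6% of all probes, among them Cd74 (−0.80), Tgtp1 (−1.08) and Iigp1 (−0.53 on the log2 scale). The 2 higher were Psme1 (0.52) and Psmb10 (0.37).

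**Figure D5:**
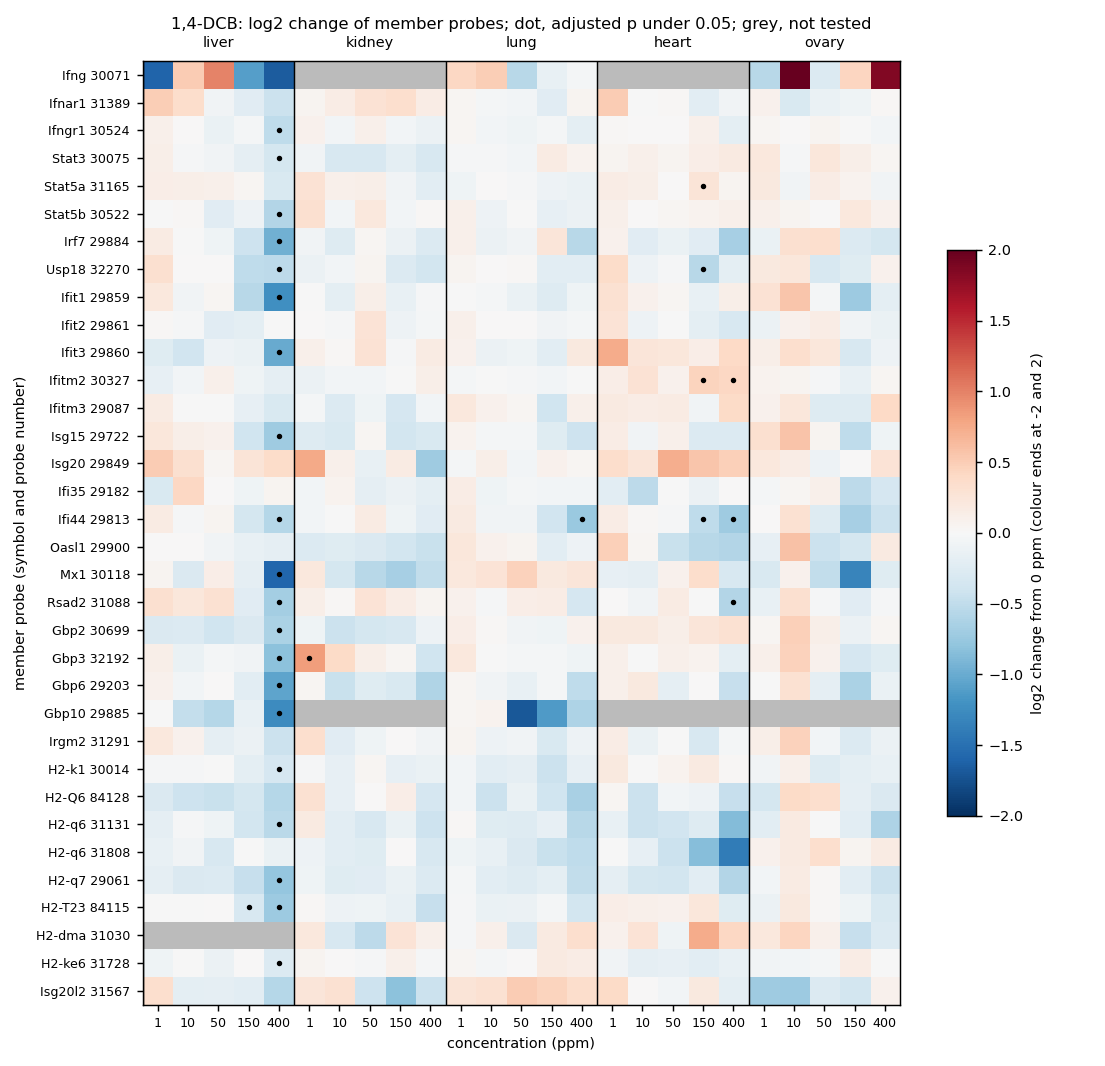
Log2 change from 0 ppm of 34 of the 36 tested member probes (rows, by role) at 5 concentrations of 1,4-DCB in ppm in each tissue (columns); blue is lower and red higher, colour ends at −2 and 2, dots mark an adjusted p under 0.05 and grey cells were not tested. Most dots stand in the liver column at 400 ppm.

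Outside liver, 1,4-DCB gave few member calls. In lung at 400 ppm Ifi44 alone was lower, at 31.6, 39.2, 48.2, 49.2 and 50.1 CPM, against 47.1 to 99.5 CPM (median 72.7) in controls (log2 change −0.74 ± 0.15, adjusted p = 0.00117), where 1.02% of all probes were lower. There 3 and 2 members were called without exposed animal 504 or 502, and 0 with the Dbp covariate. Lung had 0 calls at 1, 10, 50 and 150 ppm, against 0%, 0.0726%, 1.2% and 0.472% of all probes. In heart 2 members were lower and 3 higher at 150 ppm, against 11.9% and 15.3% of all probes, and 2 lower and 1 higher at 400 ppm, against 4.12% and 8.84%. The heart calls at 150 ppm were 0 without exposed animal 405 and 3 without control animal 9, and at 400 ppm 7 without exposed animal 504, 5 without 502 and 1 without 501 or 503. Ifitm2 in heart was 341, 407, 447, 513 and 524 CPM at 400 ppm, against 303 to 391 CPM (median 326) in controls (log2 change 0.42 ± 0.11, adjusted p = 0.00809). Ifi44 was 12.4, 13.1, 14.6, 14.7 and 24.1 CPM, against 19.3 to 37.5 CPM (median 25.4) in controls (log2 change −0.72 ± 0.19, adjusted p = 0.00753), and both pairs of ranges overlapped. Gbp3 in kidney was higher at 1 ppm, at 242, 253, 255 and 357 CPM, against 119.04 to 213 CPM (median 143.8) in controls, without overlap (log2 change 0.83 ± 0.15, adjusted p = 0.00154), where 0.44% of all probes were higher. At 10 ppm Gbp3 was 170.1, 197, 212 and 226 CPM and not called (log2 change 0.38 ± 0.15, adjusted p = 0.688). Kidney and ovary at 400 ppm had 0 calls by edgeR, against 1.03% and 0.479% of all probes, and 0 by DESeq2. At an unadjusted p under 0.05 stood 8 of 34 members in kidney, against 250 of 2729 probes. In ovary it was 3 of 35 members, against 241 of 2713 probes. Ovary at 150 ppm likewise had 0 calls, against 0.0369% of all probes.

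The isomers differ in whether the chlorine atoms sit on adjacent or on opposite carbons of the benzene ring. They were matched in concentration at 1 and 10 ppm, and 10 comparisons of their changes from control were made, 2 concentrations in 5 tissues. At 10 ppm the change under 1,2-DCB minus that under 1,4-DCB was called for 2 members. Stat5a in liver was 24.9, 25.7, 31.1 and 32.4 CPM under 1,2-DCB and 45.3, 46.001, 46.1 and 49.8 CPM under 1,4-DCB. Its changes from their own controls were −0.75 and 0.11 (difference −0.86 ± 0.22, adjusted p = 0.019), where 0.807% of all probes had a lower change. Gbp3 in kidney was 137.5, 147.6, 154.5 and 172 CPM under 1,2-DCB and 170.1, 197, 212 and 226 CPM under 1,4-DCB. Its changes differed by −1.04 ± 0.22 (adjusted p = 0.0271), where 0.147% of all probes had a lower change. The control kidneys had a Gbp3 median of 235.9 CPM in the 1,2-DCB series and 143.8 CPM in the 1,4-DCB series (log2 difference 0.64 ± 0.14). Each change is taken from its own controls, so this gap is part of the difference. For Stat5a the exposed animals of one isomer did not overlap with those of the other. For Gbp3 they did, as the highest kidney under 1,2-DCB (172 CPM) stood above the lowest under 1,4-DCB (170.1 CPM). With the Dbp covariate the Stat5a difference was −0.53 (adjusted p = 0.393), and with the left-out libraries included both were lost (adjusted p = 0.101 for Stat5a and 0.554 for Gbp3). The Gbp3 call was lost in 8 of 19 refits that left out 1 animal and the Stat5a call in 3 of 24. The Dbp medians at 10 ppm were 299 CPM under 1,2-DCB and 5.23 CPM under 1,4-DCB in liver, and 649 and 214 CPM in kidney. This difference between the series and the isomer cannot be told apart.

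Lung and heart had 0 called differences between the isomers at 10 ppm, against 0.363% and 1.14% of all probes, and ovary 0, against 0%. The members' median difference was −0.51 in liver, where that of all probes was −0.05, and −0.0019, −0.16, −0.43 and −0.47 in kidney, lung, heart and ovary. Unadjusted p-values under 0.05 numbered 13, 4, 7, 10 and 12 members in liver, kidney, lung, heart and ovary. At 1 ppm 0 members differed by edgeR or DESeq2, with 0, 3, 1, 2 and 0 at an unadjusted p under 0.05 in the same order of tissues. Other concentrations were not matched and were not compared between isomers.

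Whether a change at the highest concentration differed from that in liver was tested as an interaction. The libraries came from tissues of the same animals but entered this test without pairing. At 250 ppm 1,2-DCB the change in kidney, lung, heart and ovary lay above that in liver for 6, 11, 10 and 5 members, against 14.6%, 23.2%, 10.5% and 18% of all probes. It lay below that in liver for 3, 4, 5 and 0 members, against 17.2%, 12.2%, 17% and 16.6%. Ifit2, higher in liver, had a lower change in heart (log2 difference −1.48 ± 0.30, adjusted p = 0.000269), kidney (−1.41 ± 0.34, adjusted p = 0.00196) and lung (−0.88 ± 0.28, adjusted p = 0.0128). The Gbp3 change in kidney lay below that in liver (log2 difference −1.001 ± 0.32, adjusted p = 0.018). In the other direction Gbp6 had a change above that in liver in heart (1.27 ± 0.32, adjusted p = 0.0026) and ovary (1.17 ± 0.31, adjusted p = 0.00351). Stat5b had a change above that in liver in heart, kidney, lung and ovary (0.79, 0.77, 0.74 and 0.92 on the log2 scale). H2-K1 (0.60 ± 0.14, adjusted p = 0.00134) and H2-T23 (0.55 ± 0.14, adjusted p = 0.0034) had changes above those in liver in kidney than in liver.

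At 400 ppm 1,4-DCB 9, 17, 10 and 9 members had a change above that in liver in kidney, lung, heart and ovary and 0 a change below it, against 9.89%, 20.2%, 14.5% and 9.08% of all probes above. With the animal as a block the counts were 6, 20, 10 and 5. The kidney count was 2 to 8 when 1 exposed library was left out, 2 with the left-out libraries included, 3 with no filter on low counts and 5 with RLE scaling, and the lung count was 8 with the left-out libraries included. Antiviral effectors were among them. Ifit3 differed in lung (log2 difference 1.40 ± 0.21, adjusted p = 7.69e-06) and heart (1.40 ± 0.29, adjusted p = 0.00058). Ifit1 differed in kidney (1.35 ± 0.30, adjusted p = 0.00252) and Mx1 in lung (2.02 ± 0.37, adjusted p = 0.000153). The genes were lower in liver at 400 ppm, and in the named tissues they were not called, with log2 changes of 0.20 and 0.39 for Ifit3, −0.02 for Ifit1 and 0.24 for Mx1.

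The control groups of the 2 series differed for 7 members, all higher in the 1,2-DCB controls. Besides Gbp3 in kidney (0.513% of all probes higher there), these were Gbp6, H2-K1, H2-Q6 and H2-Q7 in heart (0.856%) and 2 members in ovary (4.42%), one of them H2-T23. Liver and lung controls differed for 0 members, against 0.577% and 0.363% of all probes. Gbp6 in heart was 11.6 to 45.03 CPM in 1,2-DCB controls and 6.92 to 12.8 CPM in 1,4-DCB controls (log2 difference 1.00 ± 0.19, adjusted p = 0.00104). Without control animal 4 the difference was 0.73 (adjusted p = 0.0111). H2-T23 in ovary had a median of 149.7 CPM in 1,2-DCB controls and 98.9 CPM in 1,4-DCB controls (log2 difference 0.55 ± 0.14, adjusted p = 0.00979, and 0.0317 without control animal 4). Without control animal 4 the calls for H2-K1 (adjusted p = 0.182) and H2-Q7 (adjusted p = 0.248) in heart were lost. When the controls of both series were pooled, an alternative chosen after seeing the data, 12 members were called in kidney at 250 ppm, against 7 with the controls of the series. Pooling also gave 7 calls in heart and in lung at 400 ppm, against 3 and 1.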

How the data were processed

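TempO-Seq counts of 360 libraries from 37 animals of the 1,2-DCB series and 35 of the 1,4-DCB series were used as deposited.
The values are read counts per probe that the authors adjusted for probe attenuation, per the labels.
The factors are not given in the sources used here; 59 probes held only multiples of a whole number above 1, and 0 of them were members.
Reads were aligned with Bowtie 1.3.1, per the submitters' processing notes; manifest and genome build are not given in the sources used here.
The 34 libraries labelled as not used were left out, 21 of kidney (16 of them for possible tissue contamination), 11 of liver and 2 of lung.
In each tissue, probes were filtered with filterByExpr, scaled by TMM and tested with edgeR 4.0.16 (quasi-likelihood, R 4.3.3, prior count 2) over all groups of the tissue, with Benjamini-Hochberg adjustment over all probes of a comparison and a call at an adjusted p under 0.05.
The script was tested on simulated data first.
Standard errors are the log2 change divided by the square root of F.
P-values measure the spread between animals, and depth limits the precision of probes with few counts.
Of 824 pairs of libraries of one group, 0 were identical, and the lowest chi-square per degree of freedom was 8.838.
Within a tissue the compared groups hold different animals, and an animal number seen in both series names different animals, so no pairing was made there; tissues of one animal are paired by the animal number in the labels, and the animal was a block in an alternative to the tests between tissues.
Other alternatives were DESeq2 1.42.0, RLE scaling, all libraries, no filter on low counts, the Dbp level as a covariate, leaving out each animal and, chosen after seeing the data, pooled controls. In the tests between tissues only exposed libraries and 1,2-DCB control kidneys were left out in turn.
Values were given for up to 4 risen and 4 fallen members with the largest change at the highest concentration (mean of at least 20 counts), up to 3 each way by adjusted p elsewhere, and a fixed set of interferon genes.
The members and all lists were chosen with earlier results of these data known, and the markers Slc22a6 and Lamp3 after seeing the panel.
Promoters come from RefSeq, build GRCm38.p6, matched by symbol.
A few genes that match the rule are not reported here by name; those that were tested remain in the counts of members.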

Additional observations from a re-analysis of the deposited data

Results flagged for a closer look

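Of 288 tested pairs of a member and a group of 4 to 10 animals, 27 held 1 animal far from the others. By chance a single such test would flag about 1 in 20. The same animals recur across members, so the tests were not independent and the counts cannot be set against that rate.
The values below are CPM of that animal, followed by the range of the others.
In liver these were Gbp6 in animal 505 at 250 ppm 1,2-DCB (4.678, others 7.266 to 8.957), Ifnar1 in animal 506R of the same group (0.05651, others 1.244 to 1.69), Ifngr1 in 1,2-DCB control animal 4 (24.33, others 11.93 to 15.56) and Ifnar1 in 1,2-DCB control animal 2 (0.3095, others 1.292 to 3.184).
In 1,4-DCB control livers Gbp6 was low in animal 5 (16.92, others 24.2 to 29.62).
In kidney at 250 ppm 1,2-DCB the flags were Gbp3 in animal 504 (107.1, others 78.95 to 87.79), Ifi44 in animal 505 (94.96, others 130.5 to 154.5), Mx1 in animal 507 (0.0, others 0.3559 to 0.7762) and Ifit3 in animal 505 (13.64, others 21.36 to 24.82).
Mx1 in kidney was high in animal 505 at 400 ppm 1,4-DCB (2.385, others 0.5319 to 0.8091) and in 1,4-DCB control animal 2 (5.51, others 0.321 to 0.8946).
In 1,2-DCB control lungs animal 4 was high in 2 H2-Q6 probes (75.51, others 22.63 to 42.43, and 181.5, others 42.11 to 89.51).

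In heart at 250 ppm 1,2-DCB animal 501 was high in Ifitm2 (654.9, others 416.2 to 495.7) and Gbp3 (58.73, others 14.01 to 25.41).
Among 1,2-DCB control hearts animal 4 was high in an H2-Q6 probe (33.38, others 3.408 to 11.02), Gbp3 (69.98, others 24.26 to 39.6), Ifit1 (17.19, others 7.891 to 11.85) and H2-K1 (143.3, others 30.82 to 60.17).
Irf7 was low in control animal 3 there (4.266, others 7.63 to 14.72).
At 400 ppm 1,4-DCB, heart animal 504 was high in Ifi44 (24.09, others 12.42 to 14.74) and Ifit1 (14.62, others 6.659 to 7.956), and animal 502 low in Ifnar1 (0.78, others 1.357 to 1.529).
In 1,2-DCB control ovaries H2-Q7 was high in animal 4 (279.6, others 75.06 to 141.6), Ifi44 low in animal 6 (37.7, others 68.4 to 120.7) and Ifnar1 high in animal 9 (13.68, others 6.572 to 9.554).
In 1,4-DCB control ovaries Isg15 was high in animal 10 (266.1, others 107.5 to 165.3).

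Changes that differed between tissues or isomers by a test of the difference itself were also flagged.
At 250 ppm 1,2-DCB the change differed from that in liver for 15 members in lung, 15 in heart, 9 in kidney and 5 in ovary, and at 400 ppm 1,4-DCB for 17, 10, 9 and 9. At 250 ppm 30.6% of members lay above liver and 11.1% below in lung, against 23.2% and 12.2% of all probes. In heart these shares were 29.4% and 14.7%, against 10.5% and 17%, and in kidney 17.1% and 8.57%, against 14.6% and 17.2%. In ovary 14.7% lay above, against 18%. At 400 ppm all lay above, against 20.2%, 14.5%, 9.89% and 9.08% of all probes.
Between the isomers at 10 ppm the change of Stat5a in liver differed by −0.86 and that of Gbp3 in kidney by −1.04 on the log2 scale.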

How the results depend on the processing

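Counts of called members moved by over 1.5 times in the cases below, 0 results changed direction, and the cause was not tested.
With the Dbp level as a covariate, calls over the 4 lower concentrations of 1,2-DCB numbered 2 in heart (main value 15), 1 in kidney (3), 16 in liver (41) and 14 in lung (29).
At 250 ppm they numbered 7 in heart (12), 2 in kidney (7) and 1 in ovary (6), with 8 differences between ovary and liver (5).
At 400 ppm 1,4-DCB they numbered 5 in heart (3) and 0 in lung (1), and the isomers at 10 ppm differed for 1 (2).
With the left-out libraries included, calls numbered 12 in kidney (3) and 22 in liver (41) at the lower concentrations of 1,2-DCB, and 0 in kidney (1) and 0 in liver (1) at those of 1,4-DCB.
They numbered 11 in kidney (7) and 11 in liver (17) at 250 ppm and 13 in liver at 400 ppm (21); kidney and lung differed from liver at 400 ppm for 2 (9) and 8 (17), and the isomers for 1 at 1 ppm (0) and 0 at 10 ppm (2).
With pooled controls, chosen after seeing the data, calls numbered 1 in kidney at the lower concentrations of 1,2-DCB (3), 12 in kidney at 250 ppm (7), 0 in kidney (1), 5 in liver (1) and 1 in lung (0) at the lower concentrations of 1,4-DCB, and 7 in heart (3), 1 in kidney (0), 7 in lung (1) and 2 in ovary (0) at 400 ppm.
DESeq2 gave 2 in ovary at the lower concentrations of 1,2-DCB (0), 6 in heart (3) and 2 in lung (1) at 400 ppm, and 4 isomer differences at 10 ppm (2).
For kidney minus liver at 400 ppm, no filter gave 3 and RLE scaling 5 (9).
With the animal as a block (replicate block), the paired test of ovary minus liver at 400 ppm gave 5 (9); the pairing by animal left the other 7 counts within 1.5 times.

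Leaving out 1 animal at a time gave, at the lower concentrations of 1,2-DCB, 36 to 51 calls in liver, 23 to 31 in lung, 6 to 19 in heart and 1 to 4 in kidney, and at those of 1,4-DCB 3 to 5 in heart, 1 in kidney and 0 to 1 in liver.
At 250 ppm it gave 14 to 20 in liver, 5 to 7 in kidney, 15 to 18 in lung, 10 to 13 in heart and 1 to 7 in ovary, and at 400 ppm 15 to 21 in liver, 1 to 3 in lung and 1 to 7 in heart.
Differences from liver were refitted without each exposed library or each 1,2-DCB control kidney in turn. All other controls, among them control animal 4, were kept, so the dependence on them was not tested. At 250 ppm these differences ranged over 7 to 10 in kidney, 12 to 14 in lung, 10 to 16 in heart and 5 to 7 in ovary. At 400 ppm they ranged over 2 to 8, 14 to 19, 10 to 17 and 6 to 12.
With each compared library left out in turn, isomer differences at 10 ppm numbered 1 to 4 and control differences 4 to 8.
Of 202 results of single members, 102 of them calls, 41 calls were lost with the Dbp covariate, 15 with the left-out libraries, 14 of 194 results with pooled controls, 5 without the filter, 3 with RLE scaling and 0 with DESeq2.
Depth limits Ifng, Mx1 and Gbp10, which had few counts.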
